A study of Mus musculus with 3 samples.

Results

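Transforming growth factor beta (TGF-beta) signalling was described at the RNA level across the cell classes of the mouse brain, through 7 genes: the ligands Tgfb1 and Tgfb2, the receptors Tgfbr1 and Tgfbr2, the latency protein gene Nrros, the signal transducer Smad3 and the inhibitor Smad7. They were taken by gene symbol and are 7 of the 31053 genes in the matrix. The cells came from brains of 10 weeks old mice (strain given as C56BL6) in 3 groups labelled control, Ischemic Stroke (IS) and Hemorrhagic Stroke (HS). The study describes the profiles as those of the striatum. Ischemic stroke was made by occlusion of the middle cerebral artery with a suture, and hemorrhagic stroke by injection of collagenase IV into the right striatum. Each group had 8 mice and 1 library, and no time between stroke and dissociation was found in the labels or methods. A number after each cell barcode, from 1 to 3, tells the libraries apart, but the sources do not say which number is which group. No comparison of control, IS and HS was therefore made, the 3 libraries are named by their barcode suffix, and there is no test between samples.

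TGF-beta is secreted in a latent form, held by its own propeptide, and is released next to cells that present it. Nrros encodes a membrane protein of myeloid cells that holds latent TGF-beta1, whereas Lrrc32 and the Ltbp genes do this in other cells. The free ligand brings a type II receptor (Tgfbr2) and a type I receptor (Tgfbr1) together. The type I receptor phosphorylates Smad2 and Smad3, which act on genes together with Smad4, and Smad7 is an inhibitory SMAD that is itself a target of the pathway. In the brain, microglia are known to depend on TGF-beta for their resting state.

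The promoters of 4 of the genes are shown, since the results turn on them: both ligands, whose levels peaked in different cells, and Tgfbr1 and Smad3, which were lower together in microglia with Cst7. Each is the 250 bases before a RefSeq start in GRCm38.p6, read on the strand of the gene. Capitals mark matches, on either strand, to 5 motifs, none of which contains another. The TATA box, where the general transcription machinery can bind, was searched as TATAAA. The GC box of the Sp1 family was searched as GGGCGG. The SMAD element, the short site that SMAD proteins bind, was searched as CAGAC. The core of the site of PU.1, a factor of myeloid cells, was searched as GAGGAA. The E-box of helix-loop-helix factors was searched as CACGTG. Tgfb1 lies on the plus strand of chromosome 7 (promoter chr7:25686752-25687001), Tgfb2 on the minus strand of chromosome 1 (chr1:186705990-186706239), Tgfbr1 on the plus strand of chromosome 4 (chr4:47352972-47353221, the first of 2 starts) and Smad3 on the minus strand of chromosome 9 (chr9:63757995-63758244).
Tgfb1: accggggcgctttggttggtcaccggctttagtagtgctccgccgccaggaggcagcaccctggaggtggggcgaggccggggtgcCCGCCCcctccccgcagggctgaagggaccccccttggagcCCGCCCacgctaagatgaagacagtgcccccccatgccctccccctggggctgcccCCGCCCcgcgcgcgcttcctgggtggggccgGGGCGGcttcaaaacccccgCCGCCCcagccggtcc
Tgfb2: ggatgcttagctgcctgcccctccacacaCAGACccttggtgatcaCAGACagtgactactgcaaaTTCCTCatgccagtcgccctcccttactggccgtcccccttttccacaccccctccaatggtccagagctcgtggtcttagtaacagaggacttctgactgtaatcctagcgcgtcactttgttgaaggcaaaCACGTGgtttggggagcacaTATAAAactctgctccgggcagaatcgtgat
Tgfbr1: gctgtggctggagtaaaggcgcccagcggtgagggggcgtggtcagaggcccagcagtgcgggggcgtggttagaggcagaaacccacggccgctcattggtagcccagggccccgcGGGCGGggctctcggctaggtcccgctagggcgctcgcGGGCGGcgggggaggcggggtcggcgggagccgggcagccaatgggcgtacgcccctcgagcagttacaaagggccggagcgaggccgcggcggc
Smad3: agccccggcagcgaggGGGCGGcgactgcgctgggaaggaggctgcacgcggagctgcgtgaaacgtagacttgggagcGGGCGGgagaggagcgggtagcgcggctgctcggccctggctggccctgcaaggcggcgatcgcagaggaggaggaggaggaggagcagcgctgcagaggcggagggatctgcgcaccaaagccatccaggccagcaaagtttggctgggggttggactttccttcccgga

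The Tgfb1 promoter held 5 GC boxes and no TATA box, and 75.2% of its bases were G or C. The Tgfb2 promoter had 53.6% G or C and 1 TATA box, 2 SMAD elements, 1 PU.1 core and 1 E-box, but no GC box. The first start of Tgfbr1 and that of Smad3 were more like Tgfb1, with 74.8 and 69.2% G or C and 2 GC boxes each. The second Tgfbr1 start, which is not shown, was unlike them, with 52.8% G or C, no GC box, 1 SMAD element and 1 PU.1 core. Over 32851 promoters of the same length, the median was 52.4% G or C, and 12.4% held the TATA box, 32.7% the GC box, 42.2% the SMAD element, 23.3% the PU.1 core and 6.02% the E-box. These matches are letters only and say nothing of binding. Of the genes whose promoters are not shown, Tgfbr2 lies on chromosome 9 from 116084293 to 116175360 and Nrros on chromosome 16 from 32142785 to 32165594, both on the minus strand.

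Levels are unique molecular identifier (UMI) counts, that is captured RNA molecules, summed over the cells of a class and scaled to a common total (CPM). The counts come from the 3' end of transcripts, so a level can be set beside the same gene in other cells but not beside another gene. Intervals are 95% exact Poisson intervals for levels and 95% exact Clopper-Pearson intervals for shares of cells. They cover counting error only. Of 35968 barcodes, 31982 had at least 1000 UMIs and at most 30% mitochondrial counts, with a median of 5801 to 6389 UMIs per library. Cells were put in classes by gates on the summed UMIs of marker genes, and the class names stand for these gates. No doublet caller was run, but the 1609 barcodes that passed several gates were left out, after some overlaps were settled by precedence. Newly formed oligodendrocytes took precedence over oligodendrocyte precursor cells and oligodendrocytes, and border macrophages over microglia. Between pericytes and smooth muscle cells, the larger marker sum decided. The libraries shared 24 to 43 barcodes pair by pair.

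Microglia were the 11679 cells with at least 0.5% of their UMIs from C1qa, C1qb and C1qc and no other gate passed, and 408 barcodes lay close to this limit. Of the markers that the gate did not use, Cx3cr1 had a UMI in 92.8% and P2ry12 in 74.6% of them, at 975 and 364 CPM against 20.5 and 9.02 CPM in T cells. The gate held border macrophages apart by their own markers. The library of suffix 3 stood apart in its makeup: it held 1098 of 1121 endothelial cells, 107 of 110 pericytes and 137 of 163 border macrophages, but 3 of 304 natural killer (NK) cells and 23 of 2443 T cells. Levels given for endothelial cells, pericytes and border macrophages are therefore mostly levels of the library of suffix 3, and those of NK and T cells mostly of the libraries of suffix 1 and 2.

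The 7 genes fell into different cells. Over all libraries, Tgfb1 was highest in NK cells and microglia, Tgfb2 in smooth muscle and choroid plexus cells, and Tgfbr1 in microglia. Tgfbr2 was highest in endothelial cells and border macrophages, Nrros in border macrophages, Smad3 in neutrophils and Smad7 in oligodendrocytes. The plot of levels by class shows all 14 classes with at least 50 cells. Of 13362 genes with at least 10 CPM in a class, 2.54% were highest in NK cells, 6.36% in smooth muscle cells, 2.74% in microglia, 6.23% in endothelial cells, 3.64% in border macrophages, 7.23% in neutrophils and 6.89% in oligodendrocytes. The shares of the other classes were 3.02% for T cells, 5.68% for choroid plexus cells, 6.93% for pericytes, 7.11% for newly formed oligodendrocytes, 10.9% for astrocytes, 15.2% for oligodendrocyte precursor cells (OPCs) and 15.6% for neuroblasts. Each of the 7 members peaked in a class of its own, so no class has a count to read against its share.

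**Figure D1:**
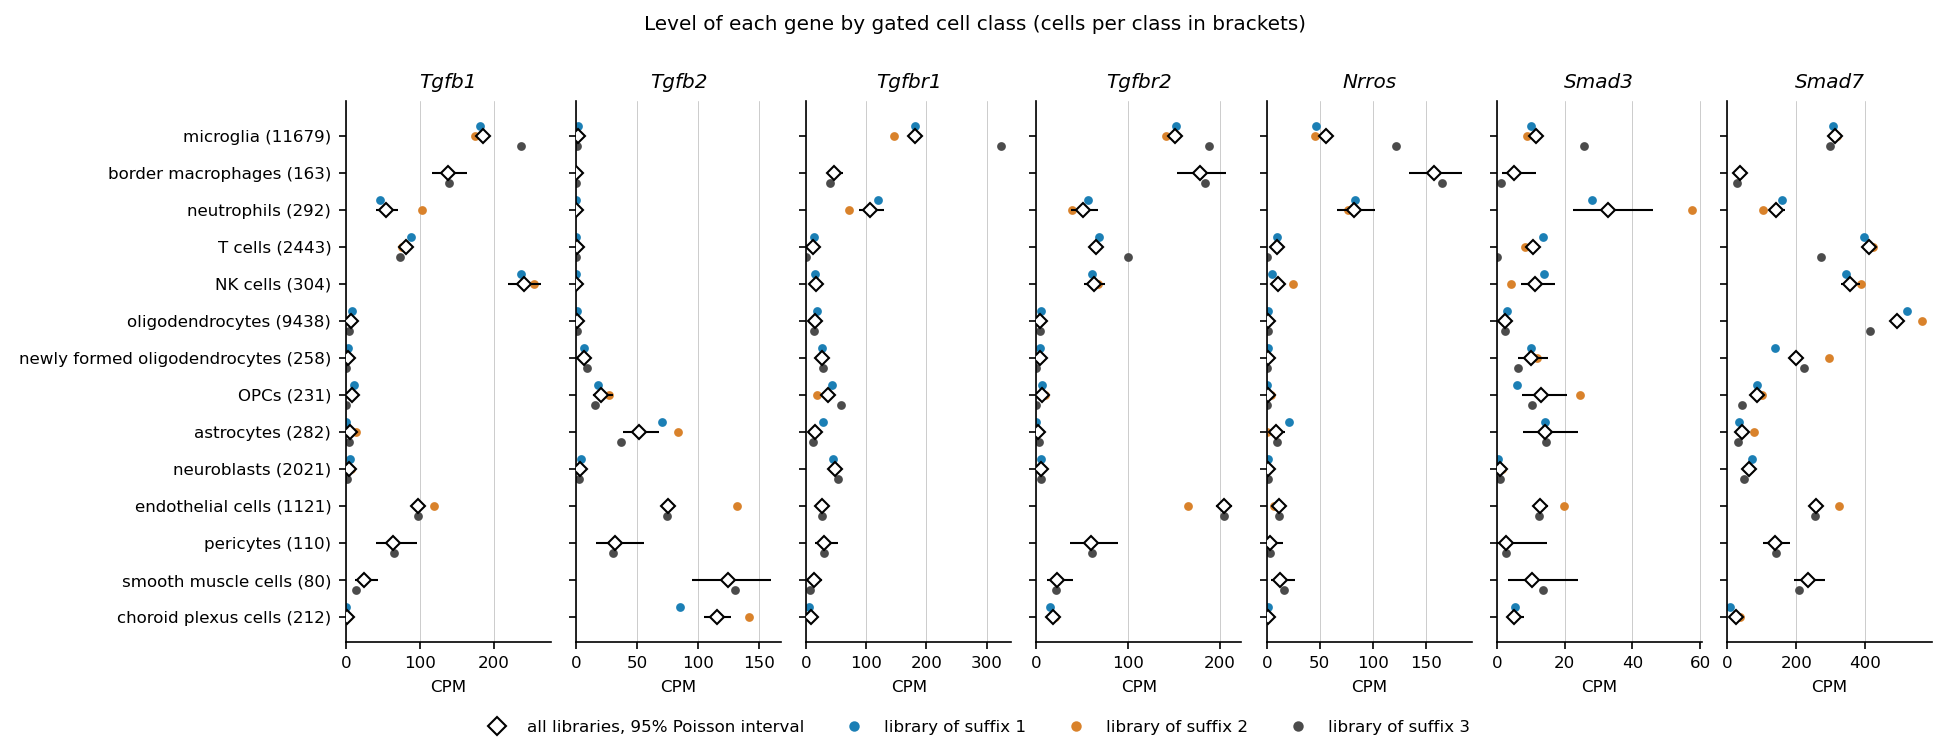
Levels of the 7 genes in CPM of summed UMIs (each x axis has its own scale) in 14 gated cell classes. Diamonds are all libraries with 95% Poisson intervals, and dots are single libraries with at least 20 cells of the class. Tgfb1 and Tgfb2 peak in different classes, and Smad7 reaches 491 CPM in oligodendrocytes.

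Tgfb1, the main TGF-beta ligand of immune cells, stood at 241 CPM in NK cells (95% interval 219 to 264), with 238 and 255 CPM in the libraries of suffix 1 and 2. In microglia it stood at 185 CPM, with 181, 175 and 237 CPM in the libraries of suffix 1, 2 and 3. The NK cell level was 1.30 times that of microglia over all libraries (95% interval 1.18 to 1.43), although the microglia of the library of suffix 3 reached the level of the NK cells. Border macrophages had 138 CPM (140 in the library of suffix 3), endothelial cells 98.2 CPM (almost all from the library of suffix 3, and 119 in that of suffix 2, from 21 cells) and T cells 81.2 CPM, and from NK cells down to T cells each class exceeded the next beyond counting error over all libraries. NK cells had 2.97 times the level of T cells (95% interval 2.65 to 3.31), and the ratio was 2.69 in the library of suffix 1 and 3.36 in that of suffix 2. Among T cells, those with Cd8a or Cd8b1 UMIs and no Cd4 UMI had 70.7 CPM, and those with the reverse had 99.9 CPM, with 72.5 and 69.7 against 108 and 89.9 CPM in the libraries of suffix 1 and 2.

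In neuroblasts, astrocytes, choroid plexus cells and the 3 classes of the oligodendrocyte lineage, Tgfb1 did not exceed 7.64 CPM over all libraries. In single libraries it reached 13.9 CPM in astrocytes and 10.4 CPM in OPCs. Droplets also hold free RNA, and the sum of 7 microglial marker genes was used to gauge it. In these classes it was at no more than 3.92% of its level in microglia over all libraries. Within a library it was at up to 7.18% (astrocytes, suffix 1). Of the 7 genes, however, Sall1 had 55.7 CPM in neuroblasts against 49.5 CPM in microglia, so in neuroblasts the sum does not gauge free RNA alone. Tgfb1 in oligodendrocytes stood at 3.49% of its microglial level, where the 7 markers stood at 2.36%. A Tgfb1 UMI was found in 3.81% of oligodendrocytes (median 6154 UMIs) and in 67.8% of microglia (median 7369 UMIs), or in 0.742 and 17.4% once each cell was thinned to 1000 UMIs. In the libraries of suffix 1, 2 and 3, Tgfb1 in oligodendrocytes was 4.37, 4.45 and 1.88% of its microglial level. The 7 markers stood at 2.78, 3.28 and 1.02%. Free RNA from other classes with Tgfb1 was not measured, so whether oligodendrocytes hold Tgfb1 RNA of their own was not tested.

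Tgfb2, the ligand known from vascular and epithelial tissue, had another order. It stood at 125 CPM in smooth muscle cells (95% interval 95.5 to 160, 80 cells) and at 116 CPM in choroid plexus cells (95% interval 105 to 127, 212 cells), which did not differ beyond counting error (ratio 1.08, 95% interval 0.81 to 1.41). In choroid plexus cells it was 85.0 CPM in the library of suffix 1 and 142 CPM in that of suffix 2, so these libraries differed beyond their intervals. Endothelial cells followed with 75.8 CPM (132 CPM in the library of suffix 2, from 21 cells, and 74.8 CPM in that of suffix 3), then astrocytes with 52.1 CPM (70.9, 83.5 and 37.0 CPM in the libraries of suffix 1, 2 and 3), pericytes with 32.2 CPM and OPCs with 20.6 CPM. Pericytes did not differ beyond counting error from astrocytes or from OPCs.

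In immune cells Tgfb2 was at or near 0. Microglia had 173 Tgfb2 UMIs in 11679 cells, or 1.65 CPM, and choroid plexus cells were 70.3 times higher (95% interval 58.8 to 84.4). No Tgfb2 UMI was found in 163 border macrophages, 292 neutrophils or 304 NK cells, and for the last the 95% Poisson interval reaches 1.99 CPM (the limit is 1.62 CPM by the rule of 3 counts over the total). Endothelial cells were the class in which both ligands were well detected, with a Tgfb1 UMI in 44.2% and a Tgfb2 UMI in 36.4% of the cells. Choroid plexus cells had a Tgfb2 UMI in 63.2% at a median of 14239.5 UMIs, which was the deepest of these classes. After thinning to 1000 UMIs the share was 6.13%, against 8.83% of endothelial cells and 13.8% of smooth muscle cells, with overlapping intervals. The higher CPM of choroid plexus cells than of endothelial cells was thus not seen in the shares of cells at equal depth.

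Nrros, which holds latent TGF-beta1 on myeloid cells, was found in the myeloid classes. It stood at 157 CPM in border macrophages (95% interval 134 to 184), 82.6 CPM in neutrophils and 56.0 CPM in microglia. Over all libraries, no other class with at least 50 cells exceeded 12.3 CPM of Nrros, although single libraries reached 25.3 CPM in NK cells and 21.3 CPM in astrocytes. In microglia it was 46.8 and 45.6 CPM in the libraries of suffix 1 and 2 but 121 CPM in that of suffix 3. Border macrophages came almost wholly from the library of suffix 3, and within it they had 165 CPM, 1.36 times the level of its microglia (95% interval 1.14 to 1.61), against 2.81 times over all libraries. Without the library of suffix 3, the 26 border macrophages left had 97.4 CPM. A UMI of both Nrros and Tgfb1 was found in 26.7% of microglia and 31.3% of border macrophages, and in 4.28% of NK cells, the class with the most Tgfb1.

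Some other latency and activation genes, named here after their values were seen, lay elsewhere, but not all of them did. Lrrc32, the relative of Nrros on endothelial cells and platelets, was highest in smooth muscle cells (246 CPM) and endothelial cells (69.5 CPM) and stood at 0.26 CPM in microglia. Itgb8, a subunit of the integrin that activates latent TGF-beta, was highest in OPCs (209 CPM) and astrocytes (131 CPM) and stood at 1.72 CPM in microglia. Its partner Itgav was less restricted, with 173 CPM in OPCs and 61.8 CPM in microglia. Thbs1 and Furin, of the same latency and activation list, were highest in neutrophils (250 and 122 CPM), the class next to border macrophages for Nrros. Tgfb3, the third ligand, was highest in smooth muscle cells (92.1 CPM), as Tgfb2 was.

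Tgfbr1, the type I receptor, was highest in microglia with 180 CPM (95% interval 178 to 183). The libraries of suffix 1, 2 and 3 gave 181, 146 and 325 CPM, so the library of suffix 3 lay apart from the others. Neutrophils had 107 CPM (95% interval 87.3 to 129), and neuroblasts 47.3 CPM with 44.4, 44.6 and 52.0 CPM in the 3 libraries. Border macrophages had 46.1 CPM, 3.91 times less than microglia (95% interval 2.93 to 5.34), and 8.22 times less within the library of suffix 3. This is 25.6% of the microglial level, and 12.2% within the library of suffix 3. The 7 microglial markers stood at 19.2 and 9.92% in border macrophages. How much of their Tgfbr1 is microglial RNA was not tested. The other classes ranged from 7.07 to 36.7 CPM. From neuroblasts through border macrophages, OPCs, pericytes and newly formed oligodendrocytes to endothelial cells, no class differed beyond counting error from the next in this order.

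Tgfbr2, the type II receptor that binds the ligand, reached 204 CPM in endothelial cells (95% interval 196 to 213) and 178 CPM in border macrophages (95% interval 153 to 207), which did not differ beyond counting error. Microglia followed with 151 CPM, with 152, 142 and 188 CPM in the libraries of suffix 1, 2 and 3. Within the library of suffix 3, endothelial cells were 1.09 times higher than microglia (95% interval 1.03 to 1.15), so most of their lead over all libraries lay between libraries. T cells had 65.2 CPM, NK cells 62.5 CPM, pericytes 59.0 CPM and neutrophils 50.8 CPM. In astrocytes 2 Tgfbr2 UMIs were found in 282 cells, or 2.04 CPM (95% interval 0.25 to 7.38). Oligodendrocytes had 4.18 CPM, which is 2.77% of the level in microglia, where the 7 microglial markers stood at 2.36%. In the libraries of suffix 1, 2 and 3, Tgfbr2 in oligodendrocytes was 3.15, 3.15 and 1.90% of its microglial level. The 7 markers stood at 2.78, 3.28 and 1.02%. Free RNA from other classes with Tgfbr2 was not measured, so whether oligodendrocytes hold Tgfbr2 RNA of their own was not tested.

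The 2 receptors were seen together most often in microglia. A UMI of both was found in 47.1% of microglia (95% interval 46.2 to 48.0), 14.99% of endothelial cells, 10.4% of border macrophages, 4.61% of NK cells and 1.76% of T cells. In 37.0% of microglia a Tgfb1 UMI was found besides. T cells had a Tgfbr2 UMI in 27.6% but a Tgfbr1 UMI in 5.94%, and endothelial cells in 64.3 and 18.1%. These shares depend on depth and on how well each transcript is captured, so they do not give the ratio of the receptors. Microglial RNA was not subtracted from the other classes.

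Smad3, a receptor-activated SMAD, was highest in neutrophils among the classes with at least 50 cells. Neutrophils had 32.8 CPM (95% interval 22.6 to 46.1) from 33 UMIs in 292 cells, with 28.1 and 57.6 CPM in the libraries of suffix 1 and 2. They were 2.85 times higher than microglia (95% interval 1.95 to 4.03), which had 11.5 CPM. Over all libraries, astrocytes, OPCs, endothelial cells, NK cells, T cells, smooth muscle cells and newly formed oligodendrocytes lay between 10.0 and 14.3 CPM, as microglia did. No class of this range differed beyond counting error from the next in order. Oligodendrocytes had 2.51 CPM and neuroblasts 0.93 CPM. In microglia, too, the library of suffix 3 was higher, with 25.7 CPM against 10.1 and 9.0 CPM. Within that library, endothelial cells, smooth muscle cells and astrocytes stood at 49.0, 52.9 and 56.3% of the microglial level.

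Smad7, the inhibitory SMAD, had its highest level outside the immune system. Oligodendrocytes had 491 CPM (95% interval 486 to 497) and a Smad7 UMI in 85.6% of 9438 cells. Their libraries of suffix 1, 2 and 3 gave 520, 565 and 413 CPM. T cells followed with 410 CPM, NK cells with 356 CPM, microglia with 312 CPM, endothelial cells with 257 CPM and smooth muscle cells with 235 CPM. Border macrophages, with 38.1 CPM, were 8.21 times lower than microglia (95% interval 5.98 to 11.6), and 10.2 times lower within the library of suffix 3. This is 12.2% of the microglial level, and 9.83% within the library of suffix 3, against 19.2 and 9.92% for the 7 microglial markers. Choroid plexus cells were lowest with 24.5 CPM. Klk6, a serine protease gene of some oligodendrocytes, made little difference to Smad7, which was slightly lower with it in each library. Cells with at least 2 Klk6 UMIs had 477, 561 and 383 CPM in the libraries of suffix 1, 2 and 3, and cells with none 535, 568 and 421 CPM, with intervals that overlapped in the library of suffix 2 only.

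Along the oligodendrocyte lineage, Smad7 stood at 85.5 CPM in OPCs, 199 CPM in newly formed oligodendrocytes and 491 CPM in oligodendrocytes. The order was the same in each library. In the library of suffix 1 the levels were 87.7, 140 and 520 CPM, in that of suffix 2 101, 294 and 565 CPM, and in that of suffix 3 42.0, 222 and 413 CPM. Oligodendrocytes were 5.74 times higher than OPCs (95% interval 4.77 to 6.98). The ratio of newly formed oligodendrocytes to OPCs was 1.59 in the library of suffix 1 (95% interval 1.18 to 2.18), 2.91 in that of suffix 2 and 5.27 in that of suffix 3. Of the newly formed cells, which the gate defined by Gpr17, Enpp6 and Neu4, 258 were kept, and 235 barcodes lay close to the limit of this gate. Cells of this class may also have passed the gate of OPCs or of oligodendrocytes. Tgfbr1 had the opposite order over all libraries, with 36.7, 25.9 and 14.6 CPM, and so had Tgfb2, with 20.6, 6.82 and 0.65 CPM. In the library of suffix 2, however, OPCs had 17.9 CPM of Tgfbr1 and newly formed oligodendrocytes 25.2 CPM, with overlapping intervals.

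**Figure D2:**
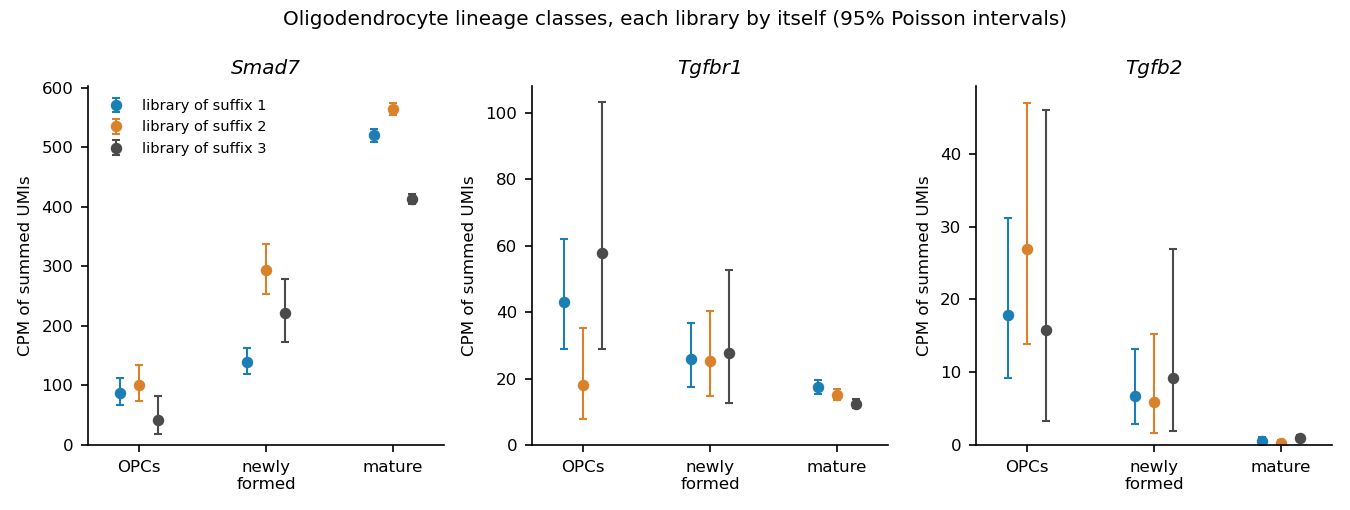
Levels of Smad7, Tgfbr1 and Tgfb2 in CPM (y axes, separate scales) in OPCs, newly formed and mature oligodendrocytes, with 1 point per library and 95% Poisson intervals. Smad7 is highest in mature oligodendrocytes and lowest in OPCs in each of the 3 libraries.

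Over the 14 classes, the genes whose levels most resembled each member were found by Pearson's r of log2(CPM + 10). This is a description over 14 classes that share libraries and depth. Nrros was closest to Cd14, the endotoxin co-receptor of myeloid cells (r = 0.95), Clec4a2 (0.95) and Irf5 (0.94). Tgfb1 was closest to Nfkb1, a subunit of NF-kappaB (r = 0.95), Cyba (0.91) and its receptor gene Tgfbr2 (0.90). Tgfb2 was closest to Id3, an inhibitor of helix-loop-helix factors (r = 0.94), Avpi1 (0.91) and Klhdc8b (0.90). Tgfbr2 was closest to Casp8, 9930111J21Rik2 and Fli1, an endothelial and blood transcription factor (0.94 to 0.91), and Tgfbr1 to Milr1, Gpr137b and Ifngr2 (0.88 to 0.86). Smad3 and Smad7 had looser neighbours, Irak2, Ddx58 and Samd9l (0.80 to 0.79) and Elk4, Slc38a2 and D16Ertd472e (0.78 to 0.74).

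The rest of the pathway was read from a list of 57 ligands, latency proteins, receptors, SMADs, regulators and targets, of which 54 had at least 10 CPM in a class with at least 50 cells. Of these, 13 were highest in endothelial cells (24.1%, against 6.23% of all genes), 10 in smooth muscle cells (18.5%, against 6.36%), 7 in OPCs (12.96%, against 15.2%) and 1, Pmepa1, in microglia (1.85%, against 2.74%). Each gene was then set beside itself in other classes, for the genes picked by their level where a member peaked. Id1, a target of BMP signalling, had 1615 CPM in endothelial cells and 344 CPM in smooth muscle cells, the next class. Id3, an inhibitor of helix-loop-helix factors, was highest in smooth muscle cells with 1910 CPM. Cdkn1a, a cell cycle inhibitor gene, was highest in endothelial cells (1371 CPM) and smooth muscle cells (1204 CPM), and had 548 CPM in microglia and 408 CPM in border macrophages. Id2, a relative of Id3, had 732 CPM in astrocytes, 711 CPM in NK cells, 540 CPM in border macrophages and 531 CPM in microglia. The SMAD corepressor genes Skil and Tgif1 were highest in neutrophils (585 and 392 CPM), with microglia next (454 and 202 CPM), and Skil had 228 CPM in NK cells. Fkbp1a, which encodes a protein that binds type I receptors, was highest in oligodendrocytes (705 CPM, against 79.4 CPM in microglia). Ppm1a, a SMAD phosphatase gene, had 86.0 CPM in oligodendrocytes against 126 CPM in neuroblasts and 125 CPM in smooth muscle cells.

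Microglia were then compared by Cst7, a cystatin gene that is switched on in activated microglia and is near absent from resting ones. Of the 11679 microglia, 5024 had no Cst7 UMI, 1099 had 1 and 5556 had at least 2. The libraries of suffix 1 and 2 had 1724 and 3824 cells with at least 2 Cst7 UMIs, but the library of suffix 3 had 8. As it also gave 39.7% of the cells without Cst7, Cst7 and library cannot be told apart in a comparison over all libraries. The values below are therefore those of the libraries of suffix 1 and 2, each by itself, and the 1997 microglia without Cst7 of the library of suffix 3 are given beside them.

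Tgfbr1 was 284 CPM in the cells without Cst7 and 141 CPM in those with at least 2 UMIs in the library of suffix 1, and 260 and 121 CPM in that of suffix 2. The ratio over both was 0.47 (95% interval 0.45 to 0.49). Smad3 was 16.8 and 7.92 CPM in the library of suffix 1 and 17.7 and 7.29 CPM in that of suffix 2, a ratio of 0.43 (95% interval 0.37 to 0.50). Smad7 was 477 and 234 CPM, and 474 and 281 CPM, a ratio of 0.56. Nrros was 65.9 and 39.8 CPM, and 59.7 and 41.8 CPM, a ratio of 0.66. In each library, the intervals of the 2 groups did not overlap for any of these 4 genes.

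Tgfb1 and Tgfbr2 differed less. Tgfb1 was 194 and 178 CPM in the library of suffix 1 and 198 and 170 CPM in that of suffix 2 (ratio 0.88). Tgfbr2 was 170 and 144 CPM, and 162 and 137 CPM (ratio 0.84). Tgfb2 remained under 2 CPM in both groups and was not counted.

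Of the 6 members with at least 10 CPM, 4 were lower by 1.5 times or more in the cells with Cst7 (Tgfbr1, Smad3, Smad7 and Nrros), and none was higher. This count needs its background, since 32.5% of 6933 genes were lower by as much and 5.31% higher. Smad3 passed the 10 CPM limit only through the cells without Cst7 (17.3 against 7.49 CPM), so it could not have been counted as higher. The same limit was used for all genes. In the library of suffix 1 alone, 4 members were lower against 31.1% of genes (5.86% higher), and in that of suffix 2, 3 members, without Nrros, against 34.9% (5.12% higher). The median log2 ratio of all genes was -0.36. A few abundant genes were much higher with Cst7: in the library of suffix 1, Apoe, a lipid carrier, was 28007 CPM without and 88941 CPM with Cst7, and Spp1, a secreted protein of activated microglia, 1439 and 11041 CPM. A larger share for such genes lowers the CPM of the others by construction, but how much of the median shift this makes up was not tested. Relative to the median gene, Tgfbr1 was lower by 0.73 and Smad3 by 0.85 on the log2 scale, still past 1.5 times. The share of all genes that far below the median gene is not given here. Smad7 was lower by 0.48 and Nrros by 0.25, which is not past it. Tgfb1 and Tgfbr2 were lower in CPM but 0.17 and 0.10 above the median gene. Over all 3 libraries, 3 members were lower by 1.5 times (Tgfbr1, Nrros and Smad3), against 44.7% of 7287 genes (6.13% higher), with a median log2 ratio of -0.51.

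The steps of Cst7 gave the same picture at finer grain. Median depth also rose at each step, from 4891 to 18113 UMIs per cell in the library of suffix 1 and from 4475 to 16153 in that of suffix 2. The steps of Cst7 and of depth therefore cannot be told apart here. Tgfbr1 in the library of suffix 1 was 284, 234, 178, 134, 135 and 136 CPM in cells with 0, 1, 2 to 4, 5 to 9, 10 to 19 and 20 or more Cst7 UMIs. In the library of suffix 2 it was 260, 200, 156, 130, 113 and 115 CPM. Tgfbr1 was thus lower from 1 Cst7 UMI on, and stayed near its lowest level from 5 UMIs on in the library of suffix 1 and from 10 on in that of suffix 2. Smad7 was close to its starting level at 1 Cst7 UMI (464 and 451 CPM) and then lower at each step, down to 194 and 251 CPM at 20 or more. Smad3 was 10.3 CPM at 1 Cst7 UMI in both libraries and 7.24 and 6.03 CPM at 20 or more. Tgfb1 had its lowest values in the middle, 160 and 151 CPM at 2 to 4 UMIs, and stood at 189 and 183 CPM at 20 or more.

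**Figure D3:**
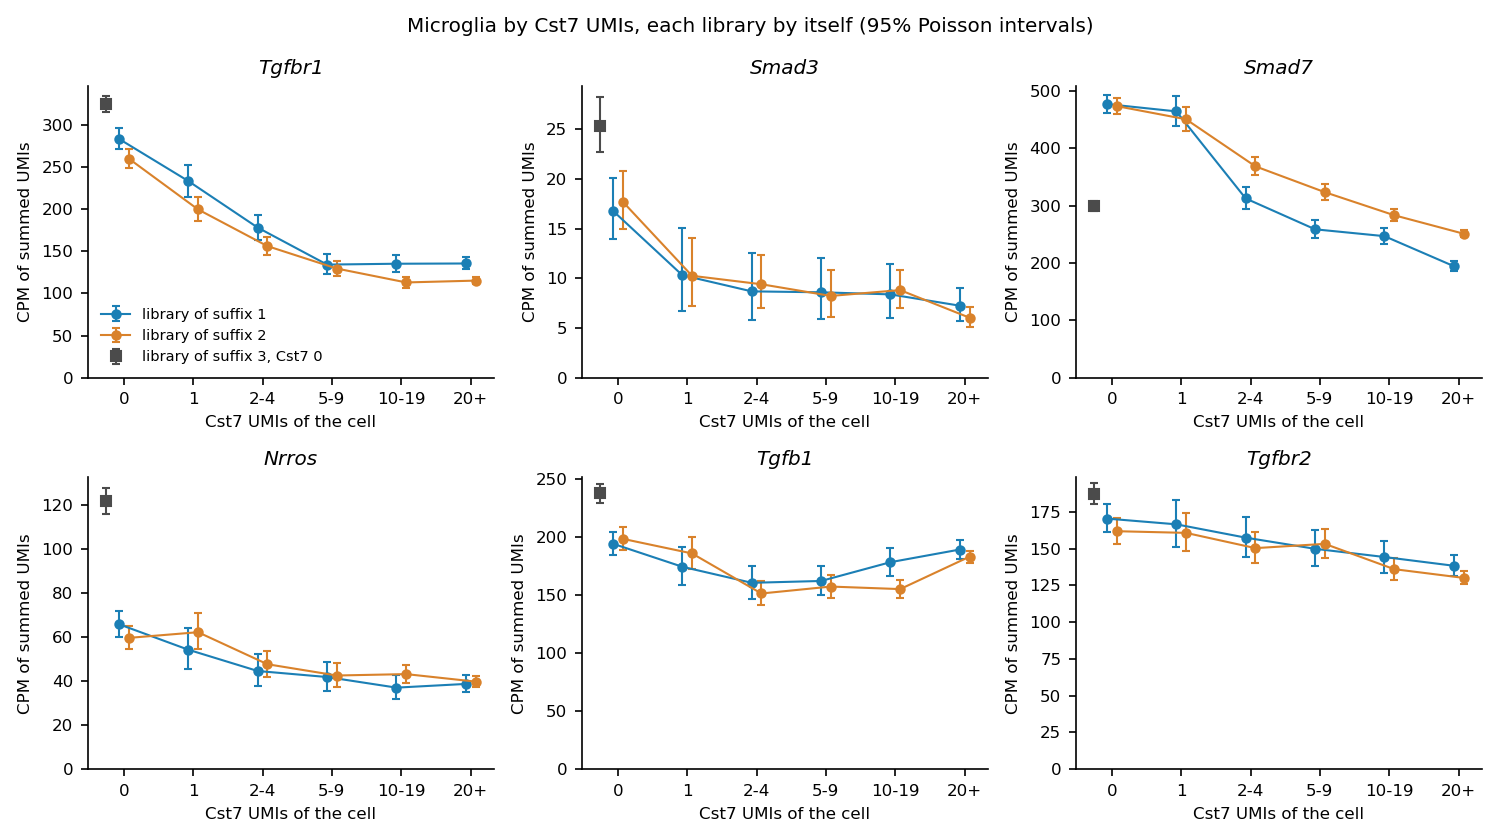
Levels of 6 genes in CPM (y axes from 0) in microglia grouped by their number of Cst7 UMIs (x axis), with 95% Poisson intervals. Lines are the libraries of suffix 1 and 2, and the square is the library of suffix 3 for cells without Cst7. Tgfbr1 is lower by the first step, Smad7 from 2 Cst7 UMIs on, and Tgfb1 and Tgfbr2 differ least.

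Depth and dissociation moved with Cst7. Cells without Cst7 had a median of 4891 and 4475 UMIs in the libraries of suffix 1 and 2, and cells with at least 2 had 12628 and 11401.5 UMIs. Among cells with 5000 to 10000 UMIs in both groups, Tgfbr1 was lower by 0.83, Smad3 by 0.97, Smad7 by 0.58 and Nrros by 0.54 on the log2 scale, and 2 members were past 1.5 times (Tgfbr1 and Smad3), against 19.9% of 6799 genes in these cells. The share of genes higher in these cells is not given here. Over cells of every depth, Smad3 passed the 10 CPM limit only through those without Cst7 (17.3 against 7.49 CPM). The 10 genes of the dissociation response (Fos, Jun, Dusp1 and others) summed to 26202 and 11084 CPM without and with Cst7 in the library of suffix 1, and to 30189 and 15717 CPM in that of suffix 2. Their part in the result was not tested. Markers of border macrophages summed to 14.2 and 20.8 CPM in the library of suffix 1 and 13.9 and 14.6 CPM in that of suffix 2.

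Even without Cst7, microglia of the library of suffix 3 differed from the others. They had 122 CPM of Nrros, 1.85 and 2.04 times the level in the libraries of suffix 1 and 2 (95% intervals 1.67 to 2.05 and 1.84 to 2.26). Smad3 was 25.3 CPM, or 1.51 and 1.43 times higher. Tgfbr1 was 325 CPM, against 284 and 260 CPM in the libraries of suffix 1 and 2. Tgfb1 was 237 CPM (ratios 1.22 and 1.20) and Tgfbr2 187 CPM (ratios 1.10 and 1.16). Smad7 went the other way with 300 CPM, a ratio of 0.63 to both libraries. Cells without a Cst7 UMI in the libraries of suffix 1 and 2 still had 28007 and 24113 CPM of Apoe, against 1361 CPM in the library of suffix 3, so they were not alike in other genes of activation.

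Of the 57 other pathway genes, 29 had at least 10 CPM in either group of the libraries of suffix 1 and 2. By 1.5 times or more, 15 were lower and 2 higher, and 12 were neither, against 32.5% of all genes lower and 5.31% higher. After division by the median ratio of all genes, 6 were lower, but the share of all genes lower after this division is not given here. Their median log2 ratio was -0.61, against -0.36 for all genes. The lower ones included each of the 3 SMADs measured at this level (Smad1, Smad2 and Smad4) and 3 of 5 receptors, which are small numbers. The 4 lower of 10 regulators, with a median log2 ratio of -0.42, are close to the share and median of all genes. Some of the 15 lower genes passed the 10 CPM limit only through the cells without Cst7 and could not have been counted as higher. Tgif2, a SMAD corepressor, was 36.0 CPM without and 10.3 CPM with Cst7 (ratio 0.29), and Eng, a co-receptor, 34.3 and 10.6 CPM (ratio 0.31). Of the higher genes, Bambi, a decoy receptor, had 21.7 and 46.4 CPM (ratio 2.13). Of the genes that were neither, the highest ratios above 20 CPM were those of Cdkn1a (ratio 1.15), the receptor gene Acvrl1 (1.06) and Fkbp1a (0.93).

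Of 9 microglial genes known to need TGF-beta, 6 were lower by 1.5 times, against 32.5% of all genes. Their median log2 ratio was -1.44, against -0.36 for all genes. Slc2a5, a fructose transporter, was 86.4 CPM without and 13.4 CPM with Cst7 (ratio 0.16), the purine receptor gene P2ry12 773 and 165 CPM (ratio 0.21), and Tmem119 608 and 163 CPM (ratio 0.27). Sparc and Olfml3 were not past 1.5 times, with ratios of 0.80 and 0.81, close to the median gene. The gate used Cst7 and none of these genes, but it was meant to set activated microglia apart from resting ones. Their levels therefore describe the groups and are no separate result on TGF-beta.

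**Figure D4:**
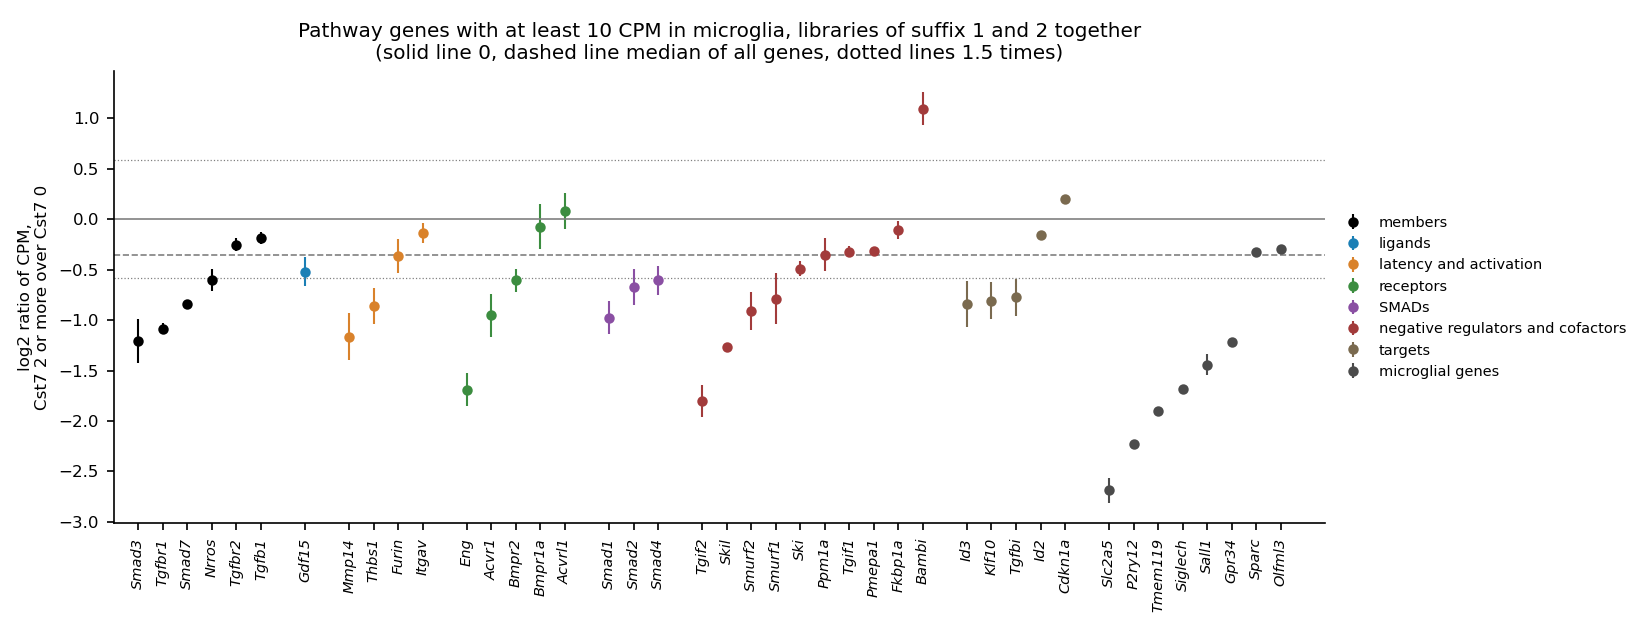
Log2 ratio of CPM in microglia with at least 2 Cst7 UMIs over those with none (y axis), libraries of suffix 1 and 2 together, for the listed genes with at least 10 CPM that are reported (x axis, by role), with 95% counting intervals. The dashed line is the median of all genes (-0.36) and the dotted lines are 1.5 times. Bambi lies above the upper dotted line, and Tgfbr1 and Smad3 lie far below the lower.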

How the data were processed

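Single-cell RNA-seq libraries (10x 3' v3 chemistry) of mouse brain were processed by the authors in Cell Ranger 3.1.0. The submitters' processing notes name STAR and build mm10, and reads were down-sampled to even out the libraries. The deposited matrix holds raw UMI counts, whole numbers per gene and barcode, with no normalization per cell. Its 3 libraries held 69270514 to 105957232 UMIs. It was treated as 1 pooled sample, since barcode suffixes and conditions are not paired in the sources used here.

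Barcodes with at least 1000 UMIs and at most 30% mitochondrial counts were kept. A class needed at least 3 UMIs of its marker genes and a set share of UMIs; the shares were chosen after the gate genes' values were seen. Border macrophages were taken out of the C1q gate, which they pass, and this was also chosen after seeing the data. Each of the 19 classes gives CPM of summed counts, and 14 had at least 50 cells. Ratios have exact conditional binomial 95% intervals. Genes count as lower or higher at 1.5 times, among those with at least 10 CPM in a group. The members and lists were chosen with earlier results of these data known. Named genes are the 7 members, the 2 highest list genes in each class where a member peaks, the 5 largest ratios in each direction above 20 CPM in the Cst7 comparison, the 3 most alike genes and the check lists. Ccn2 was matched as Ctgf, and Clec7a was not used here. Some listed genes enter the counts and medians but are not reported here by name. The ratio step was tested on simulated data. Python 3.11.15, NumPy 2.4.6, SciPy 1.17.1, pandas 2.3.3 and Matplotlib 3.10.9 were used.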

Additional observations from a re-analysis of the deposited data

How the results depend on the processing

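No paired analysis was possible because the 3 libraries have no replicates and no test was run. The class with the highest level was the same for Tgfb1, Tgfbr1, Tgfbr2 and Nrros in 11 of 11 alternatives of filter, depth, library, weighting, scaling and gate. It was the same in 8 of 11 for Tgfb2, with choroid plexus or endothelial cells otherwise, in 10 for Smad3 (border macrophages otherwise) and in 10 for Smad7 (T cells when mitochondrial and ribosomal protein genes were left out of the totals). The count of 3 members lower in microglia with Cst7 ranged from 2 to 4 over 22 alternatives. The number of all genes lower, 3257 over all libraries, ranged from 864 to 9767 over the alternatives, so the background of this count moved too. Of the other pathway genes, 21 of 31 were lower over all libraries, against 44.7% of all genes. With 1 library left out in turn, 15 to 21 were lower. Without the library of suffix 3 these were 15 of 29, against 32.5% of all genes. After division by the median ratio 9 were lower, and 6 by the median ratio in the libraries of suffix 1 and 2 alone. Among the cells of 5000 to 10000 UMIs of these libraries 13 were lower, against 19.9% of all genes. The last 2 settings were chosen after seeing the data. The counts after division by the median ratio are given without the share of all genes at the same setting, so they are not read against a background here. Division by the median removes the shift of all genes by construction, and the cause of the other differences was not tested. Smad7 was -0.57 on the log2 scale over all libraries and -0.84 without the library of suffix 3. Smad3 (33 UMIs in neutrophils) and Tgfb2 in microglia are limited by depth, and classes under 50 cells over all libraries were not ranked. Without the library of suffix 3, border macrophages (16 and 10 cells in the libraries of suffix 1 and 2) and endothelial cells (2 and 21 cells) were still ranked. The unchanged top classes of Nrros and Tgfbr2 in that alternative thus rest on few cells.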

Other observations

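Classes with fewer than 50 cells over all libraries were not ranked, but some had high levels. In 42 cells gated as monocytes or dendritic cells, Tgfb1 stood at 183 CPM (95% interval 144 to 229), Nrros at 117 CPM and Tgfbr2 at 17.1 CPM. In 24 fibroblasts, Tgfbr1 stood at 91.0 CPM (95% interval 47.0 to 159) and Smad3 at 45.5 CPM from 6 UMIs (95% interval 16.7 to 99.0), which overlaps the interval of neutrophils. In 27 ependymal cells, Tgfbr2 stood at 113 CPM (95% interval 74.8 to 163), and 59.3% of them had a Tgfbr2 UMI. In 41 B cells, Tgfb1 stood at 136 CPM (95% interval 88.0 to 201) and Nrros at 43.5 CPM from 8 UMIs.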
